A study of Mus musculus with 2 samples.

Results

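Mir532, Mir188, Mir362, Mir501 and Mir500 are the 5 microRNA genes that lie in introns of Clcn5 on the mouse X chromosome. They were taken as the rows whose Ensembl identifiers carry these symbols in the GENCODE mouse annotation. All 5 were found among 1973 counted microRNA genes. The set was chosen with values of these same libraries known, among them the difference of Mir362 between the libraries. Every level and every difference between libraries below is therefore a description, with no test.

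The material was liver of the mouse strain B6NCrl at embryonic day 11.5, pooled from male and female embryos called healthy in the labels, with no treatment or genetic change named. Total RNA was made into 2 microRNA-seq libraries from RNA under 30 nucleotides. Replicate 1 came from a pool of 109 embryos, and replicate 2 from a pool of unstated size. Both form 1 group and carry the same donor label, so the question they can address is how strongly these genes were expressed and how far the pools differed.

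A microRNA gene is transcribed as part of a longer RNA, from which Drosha cuts a hairpin and Dicer then cuts a short duplex. Either strand of that duplex, the 5p or the 3p arm, can be loaded onto an Argonaute protein. Bases 2 to 8 of the loaded arm, its seed, find the target RNAs. Clcn5 encodes the endosomal chloride and proton exchanger ClC-5, best known from the kidney proximal tubule, where its loss in people causes Dent disease. The group of microRNAs in its introns is shared with human CLCN5.

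The mature arms are shown first because they show which genes could share targets. Each is written 5′ to 3′ with the seed in capitals, from the RefSeq sequences of build GRCm38.p6, where all 5 genes matched. Statements on resemblance below rest on these 9 arms, and miR-532-5p was not used here.

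miR-532-3p: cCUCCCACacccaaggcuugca
miR-188-5p: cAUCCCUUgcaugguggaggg
miR-188-3p: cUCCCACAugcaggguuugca
miR-362-5p: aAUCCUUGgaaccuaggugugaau
miR-362-3p: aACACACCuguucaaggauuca
miR-501-5p: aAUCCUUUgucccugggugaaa
miR-501-3p: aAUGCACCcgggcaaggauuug
miR-500-5p: aAUCCUUGcuaucugggugcuuagu
miR-500-3p: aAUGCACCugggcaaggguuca

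Mir362, Mir501 and Mir500 resembled each other in both arms. Their 5p arms all began with AAUCCUU, a word held in 5 of the 1738 mature entries of the table (0.288%), the remaining entries being miR-365-3p. miR-362-5p and miR-500-5p had the same seed, AUCCUUG, while that of miR-501-5p was AUCCUUU. miR-500-3p and miR-501-3p shared the seed AUGCACC, which no other gene of the table had. Counted from the 5′ end and read from miR-500-3p to miR-501-3p, these arms of 22 bases differed by U9C, G18A, C21U and A22G, all of them outside the seed.

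Mir188 and Mir532 formed the other resemblance. Their 3p arms shared the word CUCCCACA, present in 4 of the 1738 mature entries (0.230%). It began at base 1 of miR-188-3p and at base 2 of miR-532-3p, so the seeds, UCCCACA and CUCCCAC, were shifted by 1 base and were not the same. Outside the cluster, the seed of miR-362-3p was found in miR-329-3p, and that of miR-188-5p in miR-7061-3p. Mir329, of the imprinted region on chromosome 12 at 109713481 to 109713577 of mm10, stood at 1005 CPM in replicate 1 and at 748 in replicate 2. CPM are counts per 1000000 assigned counts on the strand of the gene. Mir7061 was not among the names of the counted genes.

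The hairpins of the 3 genes with alike arms are printed because Mir362 lies next to the others in the genome. Of the members, Mir362 had the largest fold difference between the libraries. Capitals mark the mature arms.

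Mir362: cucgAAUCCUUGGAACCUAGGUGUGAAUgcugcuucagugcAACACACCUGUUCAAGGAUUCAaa
Mir501: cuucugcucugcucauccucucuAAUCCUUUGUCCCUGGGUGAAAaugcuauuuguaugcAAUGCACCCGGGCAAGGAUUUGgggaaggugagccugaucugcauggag
Mir500: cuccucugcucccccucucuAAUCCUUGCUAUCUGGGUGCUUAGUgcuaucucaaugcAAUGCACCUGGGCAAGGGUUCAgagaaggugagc

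Over whole hairpins, Mir501 and Mir500 were the most alike pair, with 67.3% identical positions in a global alignment. The other 9 pairs had 43.1% to 57.3%. Mir362 was at 43.1% with Mir501, the lowest of all pairs, at 54.3% with Mir500 and at 57.3% with Mir188. Gaps from unequal lengths count against this measure. The hairpin of Mir362 has 65 bases, against 109 in Mir501 and 92 in Mir500. In identical positions, Mir362 had 50 with Mir500, 47 with Mir501, 44 with Mir532 and 43 with Mir188. The likeness of Mir362 to Mir501 and Mir500 was thus seen in the arms. With such unequal lengths, these measures cannot decide whether it extends over whole hairpins. Among the 3p arms, miR-501-3p and miR-500-3p had 81.8% identity, and 77.3% was found both for miR-362-3p with miR-500-3p and for miR-532-3p with miR-188-3p. The longest run of bases that a member shared with any other counted precursor was 14, between Mir501 and Mir500. For the remaining members it was 13 in Mir532, 12 in Mir188 and 11 in Mir362. Among counted genes matched to the annotation, no member therefore had a near-identical copy. Copies elsewhere in the genome were not searched. The GC content of the hairpins ran from 46.2% in Mir362 to 55.9% in Mir188, around the median of 50.7% over 378 genes with at least 10 summed counts and a hairpin in the table.

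**Figure D1:**
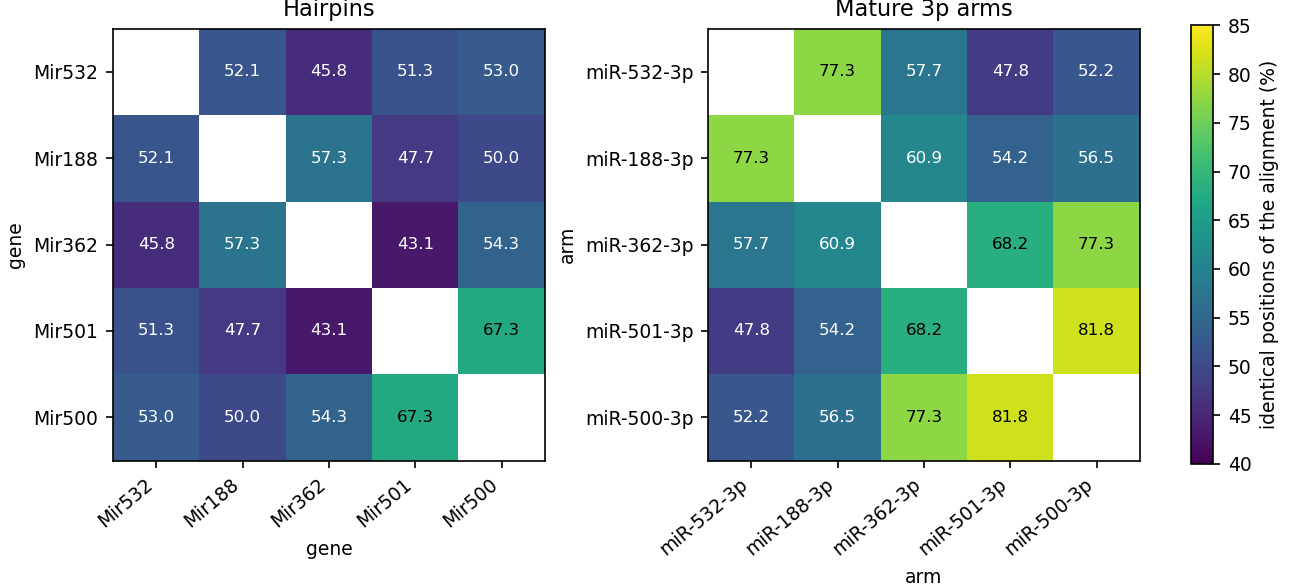
Identity between members, as the percentage of identical positions in a global alignment, for whole hairpins (left) and mature 3p arms (right); each cell is a pair of genes or arms. Mir501 and Mir500 have the highest value in both panels (67.3% and 81.8%), and miR-532-3p pairs with miR-188-3p at 77.3%.

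The 5 genes lay within a stretch of 10815 bases, on the minus strand like Clcn5 itself (chromosome X, 7153810 to 7319358, GENCODE M21, mm10). In order of transcription they were Mir532 (ENSMUSG00000070139.1) at 7248402 to 7248497, Mir188 (ENSMUSG00000065398.1) at 7247989 to 7248056, and Mir362 (ENSMUSG00000070100.1) at 7241982 to 7242046. Mir501 (ENSMUSG00000076251.1) followed at 7241243 to 7241351 and Mir500 (ENSMUSG00000070108.2) at 7237683 to 7237774. Mir532 and Mir188 were separated by 345 bases and Mir362 and Mir501 by 630 bases, while 5942 bases lay between Mir188 and Mir362 and 3468 between Mir501 and Mir500. The close neighbours were therefore the pair with alike 3p arms and 2 of the 3 genes with alike 5p and 3p arms.

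All 5 genes fell in the same Clcn5 intron, of 103648 bases, from 7213011 to 7316658. It was intron 3 of 2 annotated transcripts and intron 2 of 1 other. Of 5 annotated Clcn5 transcripts, 3 ran across the microRNA genes, and none of these had an exon over them. The other 2 transcripts started downstream of all 5. No further counted gene that could be placed lay within Clcn5. Mir660, Mir502a and Mir502b were not among the names of the counted genes. Of the 1973 counted genes, 1894 matched GENCODE M21, and the others could be neither placed nor named. Clcn5 messenger RNA was not measured in these libraries.

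**Figure D2:**
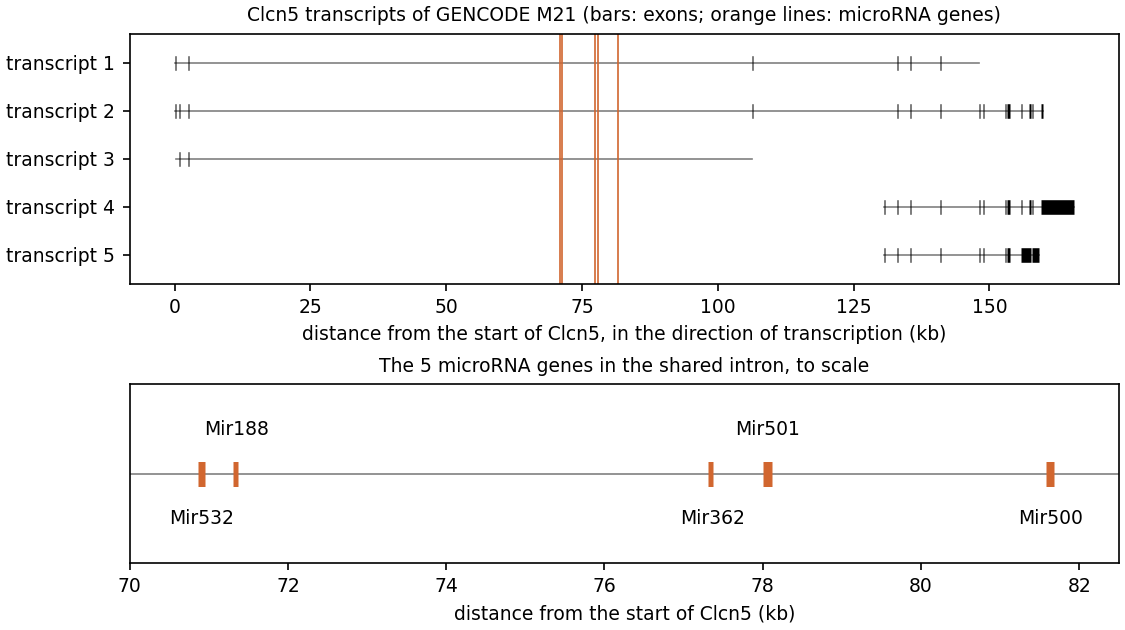
Upper panel: the 5 annotated Clcn5 transcripts (bars are exons, thin lines introns) by distance from the start of Clcn5 in kb, with the microRNA genes as orange lines. Lower panel: the 5 genes to scale within the shared intron; Mir532 lies next to Mir188 and Mir362 next to Mir501.

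Replicate 1 held 3344673 assigned counts and replicate 2 held 1584499. As a floor, a count of 0 was taken to allow up to 3 counts, or 0.897 and 1.89 CPM in them. This floor is a set limit, apart from the intervals given below. Of 5 hepatocyte markers 3 were detected, and the 5 summed to 33047 CPM in replicate 1 and to 36867 in replicate 2, nearly all from Mir122, and the 3 erythroid genes to 8326 and 11350 CPM. Brain markers summed to 3.29 and 0 CPM, with 3 of 5 counted genes at 0 in both libraries. Each of these 5 shares a run of 26 to 33 bases with another counted gene, and reads mapping to several places were not counted, so their values say little about expression. The leukocyte list gave 5341 and 5306 CPM, and the 6 counted striated muscle genes gave 714 and 626 CPM with 3 of them at 0 in both. Those 3, Mir1a-1, Mir133a-1 and Mir133a-2, share runs of 28 to 31 bases with other counted genes, with the same limit. In the hepatocyte list, Mir194-1 and Mir194-2 each share a run of 22 bases with another counted gene, so some of their reads may not have been counted. The endothelial Mir126a had 57443 and 80051 CPM. Of the genes listed for kidney, Mir30a had 14420 CPM in replicate 1 and 7608 in replicate 2, while Mir192, which is also in the hepatocyte sum, had 928 and 1560. In whole liver, fewer cells of a type and less RNA per cell cannot be told apart.

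Each library held 10 or more counts for every one of the 5 members, which counted as detected; 17.6% of all counted genes met this mark. Together they took 0.435% of assigned counts in replicate 1 and 0.451% in replicate 2. The exact 95% intervals (Clopper-Pearson) were 0.428 to 0.442% and 0.441 to 0.462%. Their mean share was 0.443 ± 0.0116% (SD, n = 2). No source used here mentions molecular identifiers, so all intervals below account for counting error and nothing else. None of the 5 had a read on the opposite strand in either library.

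Mir532, the first gene of the cluster to be transcribed, had 1749 CPM in replicate 1 (interval 1704 to 1794) and 1837 in replicate 2 (1771 to 1905). Its mean was 1793 ± 62.5 CPM (SD, n = 2), rank 85 of the 1973 counted genes and rank 6 on the X chromosome. It supplied 40.2% of the members' counts in replicate 1 and 40.7% in replicate 2, the most of any member. Its level and its part of the cluster differed little between the pools.

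Mir188, which gives the arm whose seed overlaps that of miR-532-3p, had 1260 CPM in replicate 1 (1222 to 1299) and 1585 in replicate 2 (1524 to 1649). The mean was 1423 ± 230 CPM (SD, n = 2), rank 98 of all counted genes. Its part of the members' counts was 29.0% in replicate 1 and 35.1% in replicate 2. Mir188 was thus the member with the largest gain in replicate 2, by a factor of 1.31 after scaling.

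Mir501 had 779 CPM in replicate 1 (750 to 810) and 713 in replicate 2 (672 to 756), with a mean of 746 ± 46.7 CPM (SD, n = 2). Its part of the members' counts was 17.9% in replicate 1 and 15.8% in replicate 2. Mir500, the last to be transcribed and the closest relative of Mir501 in sequence, had 205 CPM in replicate 1 (189 to 220) and 225 in replicate 2 (203 to 250). Its mean was 215 ± 14.7 CPM (SD, n = 2), and its part was 4.70% and 4.99%. After scaling, replicate 2 stood at 0.956 times replicate 1 for Mir501 and at 1.15 times for Mir500. Their counts were set apart by a factor of 3.81 in replicate 1 and 3.17 in replicate 2.

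Mir362 had 1198 counts, or 358 CPM, in replicate 1 (338 to 379), and 243 counts, or 153 CPM, in replicate 2 (135 to 174). The intervals lay far apart. The mean, 256 ± 145 CPM (SD, n = 2), had an SD of 56.6% of its own size. Mir362 made up 8.23% of the members' counts in replicate 1 (7.79 to 8.69) and 3.40% in replicate 2 (2.99 to 3.84).

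Reads per gene do not separate the 5p from the 3p arm, so it is not known which arm of each hairpin supplied these counts.

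**Figure D3:**
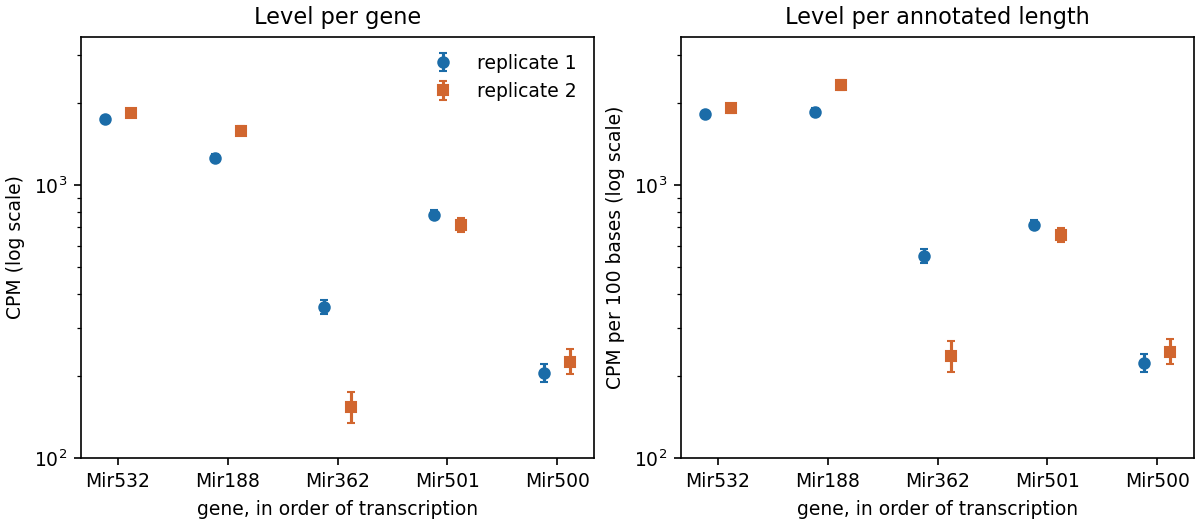
Level of each member in replicate 1 (circles) and replicate 2 (squares), as CPM (left) and as CPM per 100 bases of annotated gene (right), on log axes; bars are 95% Clopper-Pearson intervals of counting error. Mir362 drops from 358 to 153 CPM and Mir188 rises from 1260 to 1585 CPM, while Mir532, Mir501 and Mir500 change less in proportion.

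Levels of different genes were also compared per 100 bases of annotated gene, which runs from 65 bases in Mir362 to 109 in Mir501. The libraries held RNA under 30 nucleotides and the listed arms have 21 to 25 bases, so annotated length need not set the number of reads. An order seen on this scale alone is therefore not read as a difference in level. On that scale Mir188 stood at 1853 CPM per 100 bases in replicate 1 and 2331 in replicate 2, and Mir532 at 1822 and 1914. In replicate 1 the ratio of Mir532 to Mir188 was 0.983 with a counting interval of 0.945 to 1.02, so their order was not resolved there, while in replicate 2 Mir188 was higher, with a ratio of 0.821 (0.778 to 0.866). By counts alone Mir532 was the higher gene in both libraries. Mir501 followed at 715 and 654 CPM per 100 bases. Mir362 gave 551 and 236, and Mir500 222 and 245. Of the 10 pairs of members, 8 kept their order per length in both libraries with both counting intervals clear of 1. The exceptions were Mir532 with Mir188 and Mir362 with Mir500.

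Mir362 and Mir500, which share the 5p seed, changed places by counts. Mir362 had 1.75 times the counts of Mir500 in replicate 1 (1.59 to 1.93) and 0.681 times in replicate 2 (0.576 to 0.803). Per length the ratio was 2.48 in replicate 1 (2.25 to 2.73) and 0.963 in replicate 2 (0.815 to 1.14), so on that scale replicate 2 did not separate them. Level did not simply decline along the transcript either: Mir501, downstream of Mir362, was higher in both libraries on both scales.

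The difference between the pools was then described for each gene as a log2 ratio of replicate 2 to replicate 1, after scaling by the trimmed mean of M values (TMM, a normalisation that sets the bulk of genes equal). Mir362 had a log2 ratio of -1.16, with an interval of -1.37 to -0.96 from counting error alone, or 2.23-fold less in replicate 2. That interval reaches just under 2-fold. The log2 ratio was 0.39 for Mir188 (0.32 to 0.46), 0.20 for Mir500 (0.013 to 0.39), 0.13 for Mir532 (0.068 to 0.20) and -0.07 for Mir501 (-0.17 to 0.035). The intervals of Mir188, Mir500 and Mir532 lay above 0 and that of Mir501 spanned it. Scaled by total assigned counts instead, that of Mir500 spanned 0 (-0.049 to 0.33) and that of Mir501 lay below it (-0.23 to -0.026). The ratios of these genes kept their sign under both scalings, but whether their intervals included 0 depended on the scaling.

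Thus 1 of the 5 members was at least 2-fold apart, against a background of 5.45% among the 257 genes whose mean count reached 100 and 15.6% among the 454 genes with 10 or more summed counts. In the direction of Mir362, lower in replicate 2, the background was 1.17% of the 257 genes (3 genes, Mir362 included) and 8.37% of the 454. Since this difference helped to choose the cluster, nothing follows from that count. Mir362 had the second lowest ratio of the 257 genes, after Mir5113 and ahead of Mir702. Among 65 genes with a mean count within 2-fold of its own, 4 were at least 2-fold apart, Mir362 among them, and their median absolute log2 ratio was 0.31. The median log2 ratio was 0.13 over the members and 0.03 over the 257 genes. The median absolute log2 ratio was 0.20 and 0.35 in the same order.

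**Figure D4:**
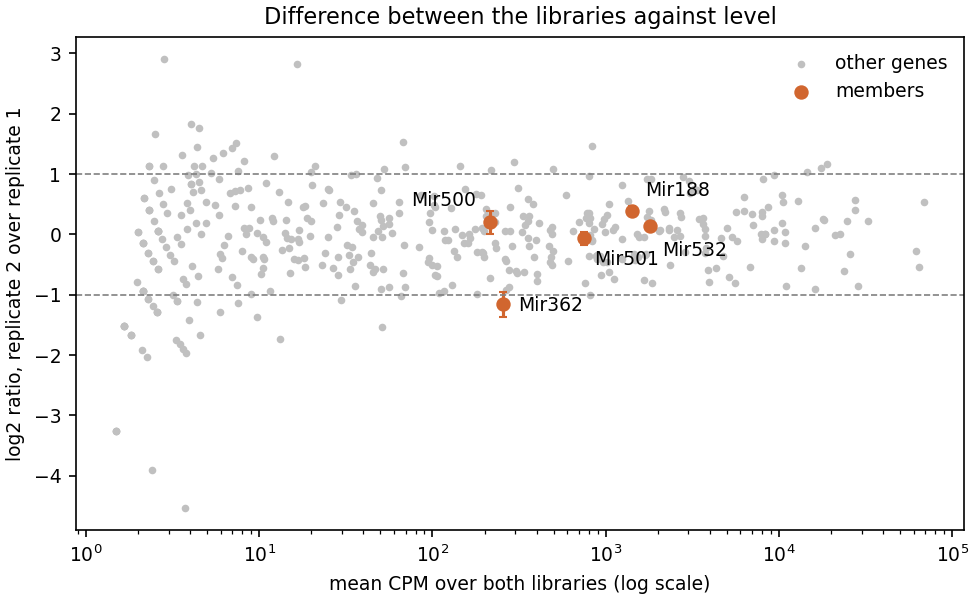
Log2 ratio of replicate 2 to replicate 1 against mean CPM (log axis) for the 454 genes with 10 or more summed counts; members are orange with 95% counting intervals, and dashed lines mark 2-fold. Mir362 lies at -1.16, while the other 4 members lie between -0.07 and 0.39 among the bulk of genes.

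Comparison within the cluster does not depend on scaling between libraries. Against its neighbour Mir501, 630 bases away, Mir362 had 0.460 times the counts in replicate 1 (0.429 to 0.492) and 0.215 times in replicate 2 (0.186 to 0.247). The log2 ratios of the other members lay above that of Mir362 by 1.09 for Mir501, 1.29 for Mir532, 1.36 for Mir500 and 1.55 for Mir188. With 1 library from each pool, a difference of library making and one of the embryos cannot be told apart. Replicate 1 also had 2.11 times the assigned counts of replicate 2, whose part in the result was not tested. Mir362 had the lowest hairpin GC content of the members. Across 223 of the 257 genes, which are not independent replicates and share both libraries, hairpin GC and the log2 ratio had a Pearson's r of -0.02 and a Spearman's rho of -0.0038. The part of GC content in the difference of Mir362 was not tested.

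The spread of ratios was set beside that of other clusters, defined here as genes on 1 strand no more than 10 kb apart with at least 3 of them at a mean count of 100 or more. There were 13. The Clcn5 cluster had a range of log2 ratios of 1.55, the second widest after 29 genes of the Dlk1-Dio3 region from Mir379 onward, at 2.17. The other 12 had a median range of 1.09. The width came from Mir362, whose difference helped to choose the cluster, so nothing follows from its rank. Without Mir362 the range was 0.46, and 0 of the other 12 clusters had a smaller one. Removing an extreme gene narrows any range, and the other clusters kept theirs. Clusters hold different numbers of genes, and a range grows with that number. By level, the highest member of the Clcn5 cluster had 8.34 times the mean CPM of the lowest, rank 10 of the 13, against a median of 25.8 times in the others.

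**Figure D5:**
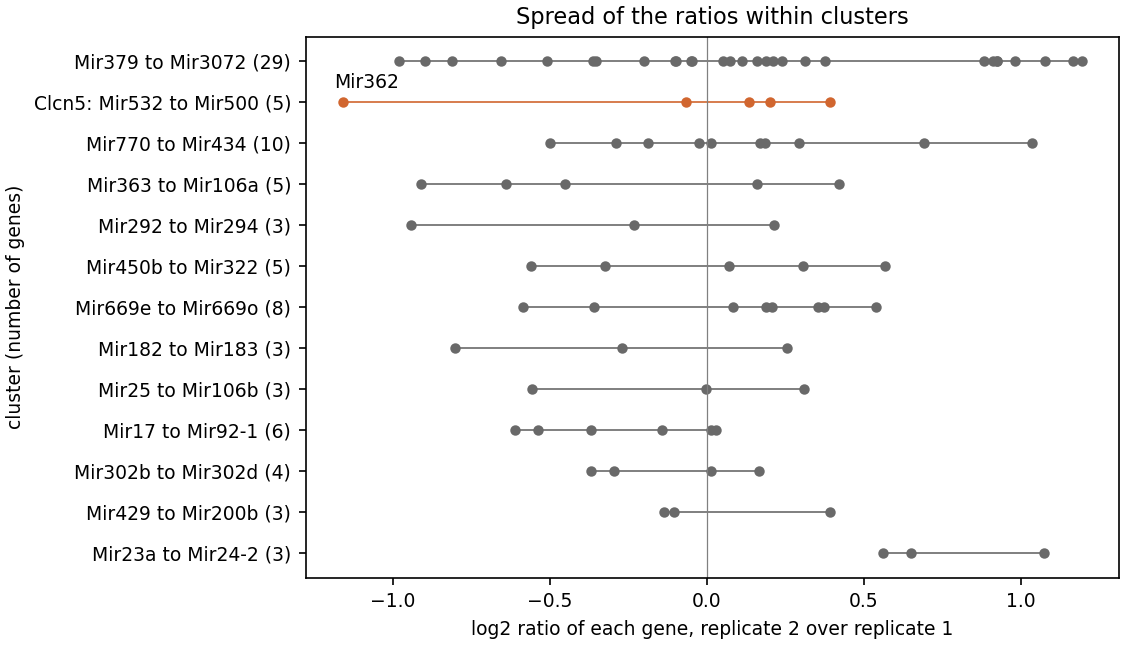
Log2 ratio of replicate 2 to replicate 1 of each gene (points) in 13 genomic clusters, with lines over the range and the number of genes in parentheses; the Clcn5 cluster is orange. Within it, Mir362 lies at -1.16 and the other 4 members between -0.07 and 0.39.

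Over 2 libraries a pattern is only a pair of levels, so likeness was measured as the distance between pairs of log2(CPM + 1) values. Nearest to Mir362 was Mir1981, with 352 CPM (replicate 1) and 177 CPM (replicate 2), at a distance of 0.21. It was followed by Mir155, a microRNA of activated leukocytes, with 366 and 191 CPM, and the cardiac Mir208a with 272 and 157 CPM. Both had lower levels in replicate 2, like Mir362, but they were picked for nearness to its levels, so nothing follows from this. Mir532 was nearest to Mir467e (1716 and 1873 CPM), Mir370 and the let-7 relative Mir98. Mir188 was nearest to the hypoxia-induced Mir210 (1209 and 1519 CPM), Mir872 and Mir302a. The genes nearest to Mir501 were Mir339 (788 and 734 CPM), Mir25 and Mir186, and those nearest to Mir500 were Mir293 (197 and 219 CPM), Mir758 and Mir3072.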

How the data were processed

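Per the labels and the accompanying file descriptions, the deposited files hold raw counts of reads per microRNA gene, aligned to mm10 and counted on GENCODE M4 by the authors. Aligner, counter and trimming are not given in the sources used here. The 3 columns hold either strand, the strand of the gene (used here, a layout read from the values) and the opposite strand. The 4 summary classes (unmapped, several places, no feature, ambiguous) stayed out of totals. They left 26.2% and 29.0% of reads assigned in replicates 1 and 2. Reads mapping to several places (22.0% and 22.6%) were not counted, which lowers genes with close copies.

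Computed here were CPM, Clopper-Pearson intervals (SciPy 1.17.1), TMM factors (edgeR 4.0.16, R 4.3.3, genes with at least 10 summed counts) and log2 ratios with 0.5 added to each count. Intervals of ratios came from the exact binomial interval of the split of counts. DESeq2 1.42.0 size factors served as an alternative. Names and positions came from GENCODE M21, which has the same assembly (1894 of 1973 genes matched). Alignments used Biopython 1.88 (match 1, mismatch -1, gap opening -2, extension -1). The computation of the ratios was checked on simulated counts with known ratios. The members and lists were chosen with earlier results of these data known. Named genes were all members, counted genes within Clcn5, genes sharing a member's seed, the 3 genes nearest to each member, the 3 most abundant X-linked genes and the tissue markers. Mir5113, Mir702, Mir379 and miR-365-3p were named outside this rule, after their values or sequences were seen.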

Additional observations from a re-analysis of the deposited data

How the results depend on the processing

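No paired analysis was possible because the labels put both libraries in 1 group. The log2 ratios of all 5 members stayed within their counting intervals under total-count scaling, DESeq2 size factors, a pseudocount of 5 and counting of either strand, with Mir362 between -1.22 and -1.14. In each of these 1 member was at least 2-fold apart, while 13 to 17 of all genes averaging 100 or more counts were, against 14. Total-count scaling shifted the median of all ratios by -0.06. All 5 members were detected under each threshold tried and in each library alone. Levels moved by construction with the denominator. Per 1000000 reads of any class, Mir532 was at 495, Mir188 at 395, Mir501 at 205, Mir362 at 69.2 and Mir500 at 59.4, the members' share was 0.122% and the X-linked share 1.79%. Counting either strand gave 1627 CPM for Mir532, 1291 for Mir188, 233 for Mir362, 677 for Mir501, 195 for Mir500 and 0.402% for the members. Without the most abundant gene in the denominator these were 1926, 1530, 273, 801, 231 and 0.476%. Per 100 bases, Mir532 was at 1868, Mir188 at 2092, Mir362 at 393, Mir501 at 685 and Mir500 at 234. From 1 library alone, levels ran from 1749 to 1837 CPM for Mir532, 1260 to 1585 for Mir188, 153 to 358 for Mir362, 713 to 779 for Mir501 and 205 to 225 for Mir500. The members' share ran from 0.435 to 0.451% and the X-linked share from 5.93 to 7.02%. The alternatives planned for other counted genes within Clcn5 were not run, since none was found there.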

Other observations

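Over the whole X chromosome, the members included, 39 of 120 counted microRNA genes were detected. X-linked genes took 5.93% of assigned counts in replicate 1 and 7.02% in replicate 2 (mean 6.48 ± 0.775%, SD, n = 2). The Clcn5 members made up 7.34% and 6.43% of these X-linked counts. The most abundant X-linked genes were Mir322, known from muscle differentiation and cell cycle arrest, with 22729 and 32295 CPM in replicates 1 and 2, Mir652 with 8383 and 12571 CPM, and the myeloid Mir223 with 4934 and 5087 CPM. Of 31 X-linked genes averaging 100 or more counts, Mir362 was the only one at least 2-fold apart between the libraries (3.23%, against 5.45% of all genes at that level). The median log2 ratio of the 31 was -0.08, and 17 of them were lower in replicate 2.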
